A study of Saccharomyces cerevisiae with 8 samples.

Results

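The sites described are summits of Rpb1, the subunit of RNA polymerase II that carries its catalytic core, that fell between neighbouring yeast genes read in the same direction. A summit is the single base at which a peak of chromatin immunoprecipitation is highest. Of the 4742 summits in 4 deposited lists, 2837 lay on the 8 chromosomes (II, V and XI to XVI) whose positions matched the R64 gene table. Of these, 522 lay outside every protein-coding gene and had their nearest such genes to the left and right on the same strand. Such a stretch between tandem genes is called a gap here, and it runs from the stop codon of the upstream gene to the start codon of the downstream gene.

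The budding yeast strain in every sample was AM1003, a wild type by title, in which galactose turns on the HO endonuclease through GAL::HO and so makes a double-strand break. Cells were grown overnight in raffinose medium and collected before galactose was added (0 h, untreated) and 6 h after addition of 2% galactose. Chromatin was immunoprecipitated with an antibody to Rpb1 in 2 libraries at each time, and the 4 matching inputs are not analysed here. The series was set up to ask how polymerase is distributed on genes while break-induced replication repairs the break. The change of carbon source and the break come with the same treatment, so their parts cannot be told apart.

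RNA polymerase II does not stop at the stop codon. It transcribes on until the transcript is cleaved and polyadenylated, and it leaves the DNA downstream of that site, so polymerase just past a gene is a normal stage of transcription. Between tandem genes this terminating polymerase can lie close to the promoter of the next gene, and such gaps may also hold genes for small nucleolar RNAs (snoRNAs), which have their own polymerase II transcription units.

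The whole lists held 1186 and 1194 summits at 0 h (replicates 1 and 2) and 1288 and 1074 at 6 h (replicates 1 and 2), the order used for every run of 4 values that follows. Each summit carries a score, a p-value or q-value on the −log10 scale that was not normalized between libraries, so a score or its rank describes a summit within its own library. Read depth is unknown, and a gap with no summit is not shown to lack polymerase. The labels do not state that the replicates are separate cultures, and p-values then measure the spread between these libraries alone, which may be technical. Chromosomes were matched with ribosomal protein, translation factor and glycolytic genes as landmarks, and their best shifts were 0 bp on II, V, XII, XIII and XVI, -200 bp on XI and XIV, and 200 bp on XV. A landmark counted as matched if a summit lay inside it or within 250 bp of it, and shifts were tried in steps of 100 bp. A best shift of 0 bp therefore does not exclude a smaller error. Distances to a codon carry an uncertainty of about 250 bp on every chromosome. The distance between summits of different libraries does not.

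Gaps between tandem genes held 114 and 98 summits at 0 h and 157 and 153 at 6 h. This was 16.0% and 13.9% of the placed summits at 0 h and 20.6% and 23.3% at 6 h, so both 6 h libraries lay above both 0 h libraries. The means were 15.0% ± 1.52 (SD, n = 2) and 21.9% ± 1.87 (SD, n = 2), a difference of 6.97 percentage points. The two-sided exact permutation test of the 4 libraries gave p = 0.33, which is the smallest p that 2 libraries against 2 can give. The mean share was higher at 6 h on 8 of 8 chromosomes, and both 6 h libraries lay above both 0 h libraries on 7, all but XI. The difference depended on the placement of the summits: moving all of them 250 bp to the left made it -1.75 points, while 250 bp to the right left 4.24 points.

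Tandem gaps numbered 1612 and made up 13.3% of the sequence of these chromosomes, with a median length of 405.5 bp. Per 100 kb of gap, the 4 libraries had 12.5, 10.7, 17.2 and 16.8 summits. Inside genes the density was 8.90, 9.34, 8.44 and 6.78 summits per 100 kb. Polymerase summits were thus denser between tandem genes than inside genes in each library, and the margin was wider at 6 h. Gaps between convergent genes, where transcription arrives from both sides, had 39.4, 36.8, 53.0 and 47.5 summits per 100 kb. Gaps between divergent genes, which hold promoters and no gene end, had 4.46, 3.96, 2.64 and 2.81. The ratio of mean densities, 6 h to 0 h, was 1.46 for tandem, 1.32 for convergent and 0.647 for divergent gaps, against 0.835 inside genes.

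**Figure D1:**
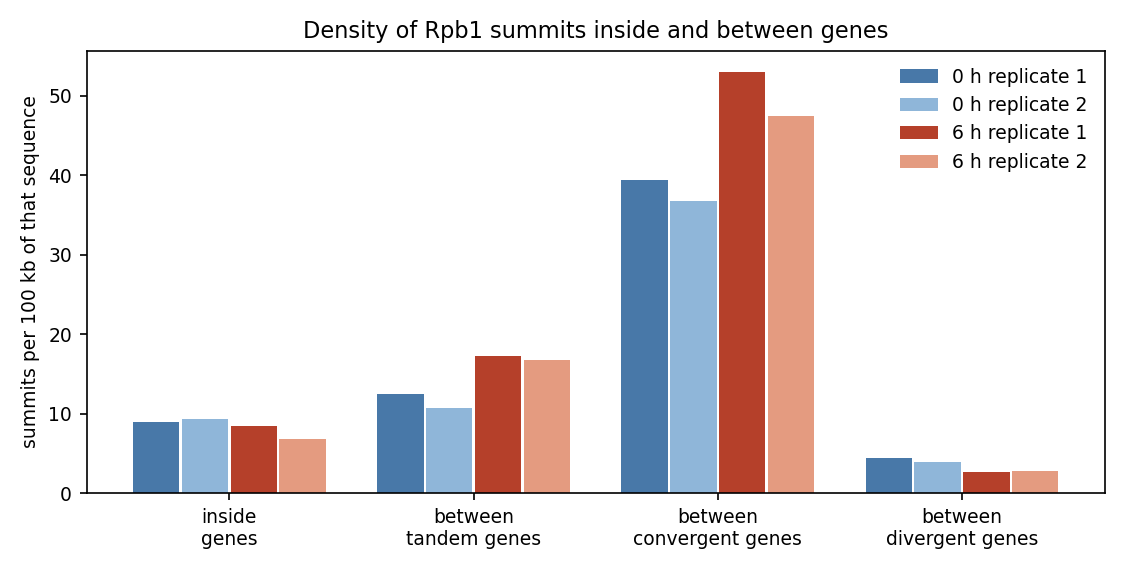
Summits per 100 kb of sequence inside protein-coding genes and between tandem, convergent and divergent neighbours, with 1 bar per library. Between tandem genes the 6 h bars, at 17.2 and 16.8, stand above the 0 h bars, at 12.5 and 10.7, while inside genes the 6 h bars are the lower ones.

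By median score rank, summits of tandem gaps stood above those inside genes, close to those of convergent gaps and below those of divergent gaps. The median score percentile was 55.7, 54.4, 61.4 and 58.3 for the tandem summits, against 46.9, 49.7, 42.4 and 39.7 for summits inside genes. It was 55.0, 49.7, 59.5 and 58.0 in convergent gaps and 61.6, 73.1, 75.3 and 68.2 in the few summits of divergent gaps. At the top of the ranking tandem summits were not set apart at 0 h: 11, 8, 19 and 22 of them, or 9.65%, 8.16%, 12.1% and 14.4%, fell among the best-scoring 10% of their library.

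The summits lay nearer the end of the upstream gene than the start of the downstream gene. Their median distance past the upstream stop codon was 185.5, 208, 199 and 177 bp, and the median distance left to the downstream start codon was 383.5, 339.5, 344 and 388 bp. Past the stop codon the median was 153, 193, 183 and 135 bp for genes with a W in their systematic name. For genes with a C it was 200, 212, 219 and 216 bp, larger in each library. The cause of this strand difference was not tested. The summits nearer the stop codon than the start codon numbered 72, 57, 105 and 111, or 63.2%, 58.2%, 66.9% and 72.5%. The time points overlapped in both medians: past the stop codon the mean of the library medians was 196.75 bp ± 15.9 at 0 h and 188 bp ± 15.6 for the 6 h libraries (SD, n = 2 each), with an exact permutation p = 0.667. The mean left to the start codon was 361.5 bp ± 31.1 and 366 bp ± 31.1 (SD, n = 2 each), also with an exact permutation p = 0.667. On a scale from 0 at the stop codon to 1 at the start codon, the median position was 0.320, 0.423, 0.373 and 0.289, again overlapping between times (exact permutation p = 0.667). What differed was how many gaps held a summit rather than the median place within the gap.

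Within 250 bp past the stop codon lay 59.6%, 60.2%, 62.4% and 66.0% of the tandem summits. The means were 59.9% ± 0.392 at 0 h and 64.2% ± 2.54 at 6 h (SD, n = 2 each; exact permutation p = 0.33). This difference of 4.29 points did not keep its direction or size: it was -0.506 points for a limit of 100 bp, -4.47 with all summits moved 250 bp to the left and 1.28 with the best landmark shifts. Far fewer lay a long way past the stop: 5, 6, 3 and 3 summits were more than 1000 bp beyond it. Within 250 bp of the downstream start codon there were 40, 38, 61 and 47 summits, some of them in short gaps where both codons were that close. Summits nearer the stop codon had a median score percentile of 55.8, 55.7, 61.9 and 61.9, and those nearer the start codon 54.8, 51.3, 58.2 and 52.0.

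**Figure D2:**
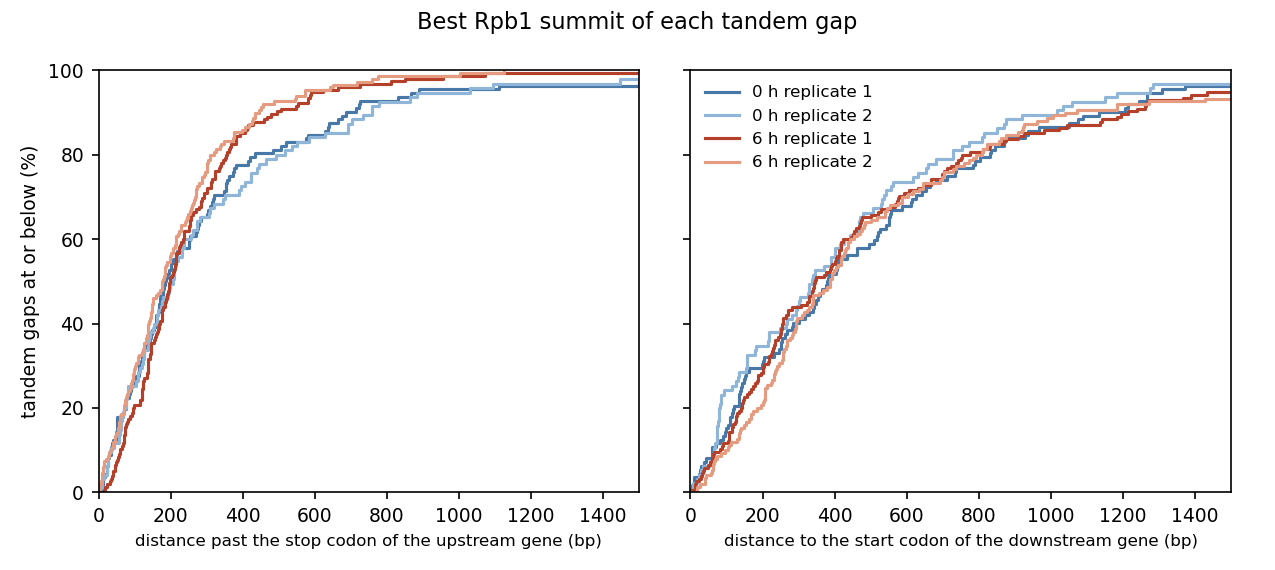
Share of the tandem gaps with a summit (y axis, %) whose best summit lay at or below a given distance (x axis, bp) past the upstream stop codon (left) or before the downstream start codon (right), 1 line per library. The lines nearly coincide at short distances past the stop codon, and the 6 h lines run above the 0 h lines beyond about 250 bp.

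The 2 ends of the gaps differed between times when the coding sequence next to them was included. Within 500 bp of the stop codons of upstream genes, the summits past the codon numbered 108, 85, 159 and 163 and those before it 114, 133, 90 and 77. The median gap was 405.5 bp long, so these counts can reach beyond the gap or the gene. Tandem summits within 500 bp past the stop codon, all in the gap itself, numbered 93, 78, 140 and 141. The gap side held 48.6% and 39.0% at 0 h and 63.9% and 67.9% at 6 h, with means of 43.8% ± 6.83 and 65.9% ± 2.87 (SD, n = 2 each; exact permutation p = 0.33). Within 500 bp of the start codons of downstream genes, summits before the codon numbered 87, 86, 127 and 115, and those after it 116, 122, 59 and 64. The counts before the codon can likewise reach into the upstream gene. The share before the start codon was 42.9%, 41.3%, 68.3% and 64.2%, with means of 42.1% ± 1.07 and 66.3% ± 2.85 (SD, n = 2 each; exact permutation p = 0.33). At both codons the 6 h libraries thus had more summits on the side towards the gap and fewer on the other side than either 0 h library. A summit in a short gap or gene can be counted at more than 1 codon. These shares depend on where the codons are placed, and moving the summits was not tried on them.

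**Figure D3:**
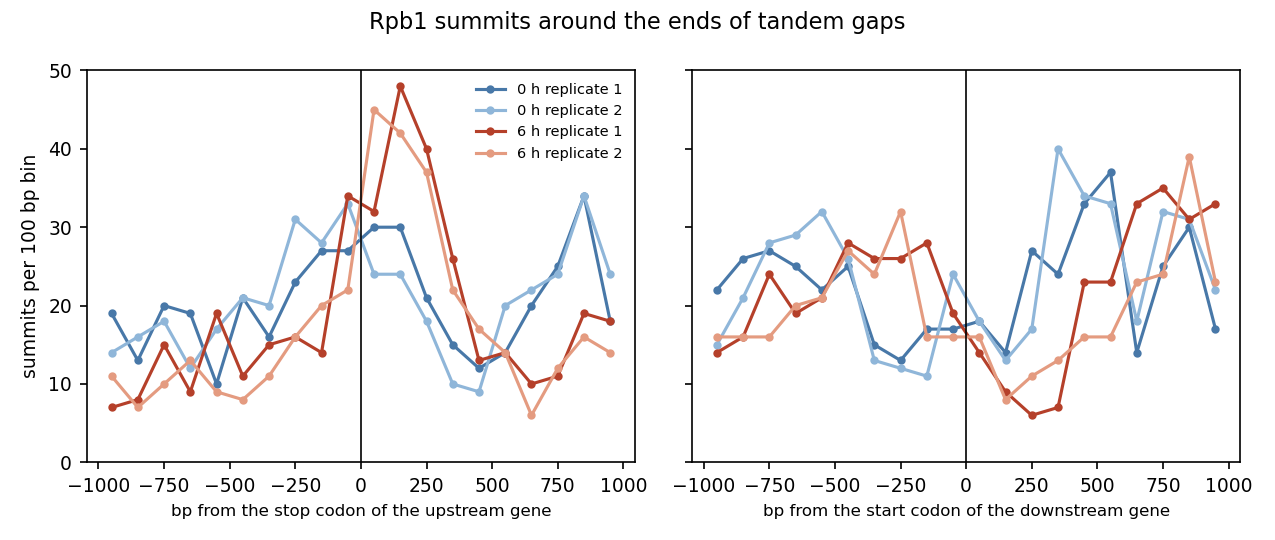
Summits per 100 bp bin around the stop codon of the upstream gene (left) and the start codon of the downstream gene (right) of the tandem gaps, 1 line per library, with 0 at the codon and transcription running left to right. In the 3 bins after the stop codon the 6 h libraries hold 32 to 48 summits and the 0 h libraries 18 to 30, and in the bins from 200 to 400 bp after the start codon the 6 h libraries hold 6 to 13 and the 0 h libraries 17 to 40.

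Of the 1612 tandem gaps, 255 (15.8%) held a summit in any library. A summit was present in all 4 libraries in 37 gaps, in 3 libraries in 38, in 2 in 70 and in 1 in 110. Longer gaps held one more often: the share with a summit in any library was 5.91% in the gaps of 4 to 282 bp, 13.5% in those up to 405 bp, 16.4% up to 624 bp and 27.5% in longer ones.

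At 6 h, replicates shared more of these sites with each other than with the 0 h libraries, and at 0 h the shares were closer. A summit of any kind lay within 250 bp in the replicate library for 67.5%, 68.4%, 69.4% and 75.8% of the tandem summits, a mean of 70.3%. Of the 0 h summits, 55.1% to 68.4% had such a neighbour in a single 6 h library, so 0 h replicate 1 matched 6 h replicate 1 as often as its own replicate. Of the 6 h summits, 37.9% to 47.8% had one in a single 0 h library, and the 0 h lists hold fewer tandem summits. The mean between times was 52.0%. The tandem summits with no neighbour in either library of the other time numbered 29, 30, 68 and 70, or 25.4%, 30.6%, 43.3% and 45.8%. For 32 and 31 of those at 6 h the upstream gene held a summit in both 0 h libraries, while for 4 and 6 of those at 0 h the upstream gene held one in both 6 h libraries. Among all 255 gaps with a summit, the upstream gene held one in both 0 h libraries in 82 and in both 6 h libraries in 35.

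The gaps occupied in all 4 libraries included many that hold a snoRNA gene. Of the 12 with the highest mean rank, 8 hold an annotated non-coding RNA gene, and 6 follow a ribosomal protein gene. The gap from ADE16, an enzyme of purine synthesis, to AAT2, an aspartate aminotransferase, ranked first. It holds SNR30, a snoRNA needed to process ribosomal RNA, and its summits scored 92.6, 110, 72.8 and 124. They lay at positions 199353, 199360, 199346 and 199357 of chromosome XII in the coordinates of the deposited lists, which is 187, 180, 194 and 183 bp past ADE16. All 4 libraries therefore placed polymerase at nearly the same base.

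Between IRC13 and DFR1, the dihydrofolate reductase gene, lies SNR17A, a gene for the U3 snoRNA. Its scores were 89.9, 82.5, 53.4 and 125, and the summits lay 356, 193, 580 and 548 bp past IRC13, and the 6 h pair was farther along than the 0 h pair. The gap from RPS8A to AAR2, a splicing factor gene, holds SNR56 and scored 77.7, 90.1, 60.1 and 67.3 at 214, 256, 213 and 263 bp past RPS8A. Here the time points did not separate in position. The gap from PCL1, a cyclin gene, to CAF40, a gene of the CCR4-NOT complex, holds SNR40. It scored 61.4, 60.3, 51.2 and 72.9 at 722, 759, 813 and 775 bp past PCL1.

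The gap from KSH1 to SSN8, which encodes cyclin C of the Mediator complex, holds NME1, the RNA of RNase MRP, and SNR66. Its summits scored 41.5, 34.5, 38.2 and 46.7 and lay 628, 629, 587 and 574 bp past KSH1. In the gap from BRE5 to LYS9, a lysine synthesis gene, SNR49 lies near summits with scores of 56.6, 31.7, 36.1 and 41.3, at 726, 760, 725 and 758 bp past BRE5. These summits lay far from the upstream stop codon, 47 to 102 bp from NME1 and 65 to 100 bp from SNR49. The gap from ASR1 to NVJ2 holds SNR51, SNR70 and SNR41, and its best summit lay 580 and 584 bp past ASR1 at 0 h and 956 and 1004 bp past it at 6 h, with scores of 43.6, 40.7, 31.3 and 26.6.

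Of the tandem gaps, 97 hold 113 annotated non-coding RNA genes, and 34 of these gaps had a summit in any library, 17 of them in all 4. Such gaps held 27, 23, 26 and 24 of the tandem summits, or 23.7%, 23.5%, 16.6% and 15.7%. Their number was thus nearly the same in each library, and the larger total at 6 h came from gaps with no annotated RNA gene. Of 21 snoRNA genes in tandem gaps, 17, 18, 14 and 12 had a summit within 250 bp of the RNA gene, and 11 had one in all 4 libraries. Of 70 transfer RNA genes, which RNA polymerase III transcribes, 5, 4, 7 and 7 had one. TLC1, the telomerase RNA, had a summit in all 4 libraries.

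The other ranked gaps of this kind follow ribosomal protein genes. After RPL36B, on the way to the autophagy gene ATG41, the scores were 59.8, 43.4, 64.03 and 79.7 and the summits lay 191, 206, 203 and 206 bp past the stop codon. After RPS16A they were 45.4, 55.0, 58.3 and 89.0, at 25, 43, 40 and 40 bp. The positions of the 4 libraries thus lay within 18 bp of each other at both genes. RPL6B, followed by the prolyl isomerase gene FPR4, had scores of 29.4, 31.7, 48.7 and 62.6 at 196, 216, 255 and 255 bp. RPL12A, followed by POL5 with SNR80 between them, had scores of 33.9, 37.2, 40.0 and 47.8 at 639, 164, 589 and 641 bp. RPS30A had 30.1, 34.2, 28.0 and 28.3 at 278, 9, 340 and 49 bp, and there the replicates differed by more than the time points.

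Over the 37 gaps with a summit in all 4 libraries, the mean position moved by a median of 6 bp downstream from 0 h to 6 h, with quartiles of -6 and 56.5 bp. Replicates differed by a median of 37 bp at 0 h and 51 bp at 6 h, so the movement of the median gap was smaller than the spread between replicates. In 11 gaps the 6 h pair of summits was farther downstream than the 0 h pair, with no overlap, and in 5 it was farther upstream. In the remaining gaps the pairs overlapped. With so few libraries at each time, pairs can separate in either direction by chance. The counts of 11 and 5 were not tested against that, so they do not show a downstream movement. All 4 best summits fell within 100 bp of each other in 16 gaps and within 250 bp in 27.

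A gap was counted as gained where both 6 h libraries and neither 0 h library held a summit, and as lost in the reverse case. Of the 1612 tandem gaps, 42 (2.61%) were gained and 12 (0.744%) were lost. Of 871 convergent gaps, 36 (4.13%) were gained and 15 (1.72%) lost, and of 880 divergent gaps, 1 (0.114%) was gained and 4 (0.455%) lost. Over all 3363 gaps the counts were 79 (2.35%) and 31 (0.922%), so the tandem shares lay near those of all gaps. Gains outnumbered losses in tandem gaps by 42 to 12, and moving all summits 250 bp to the left made this 22 to 24. A call needs fewer libraries when 1 is left out, and the gained count was then 79 without 6 h replicate 1 and 72 without 6 h replicate 2, while the lost count was 32 and 35 without 0 h replicates 1 and 2 and 21 without 6 h replicate 1.

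In 33 of the 42 gained gaps the 6 h summits lay nearer the stop codon, and in 28 both lay within 250 bp past it. Over all tandem summits at 6 h, 66.9% and 72.5% were nearer the stop codon and 62.4% and 66.0% within 250 bp of it, so this position is not particular to gained gaps. The upstream gene had held a summit in both 0 h libraries in 24 of the 42, and 19 of these genes had none in either 6 h library. Over all 1612 tandem gaps these counts were 158 and 57, and over the 255 with a summit in any library 82 and 34. A gained gap holds no 0 h summit by definition, while 146 of the 255 held one. Of those 146, the upstream gene held a summit in both 0 h libraries in 28. The larger share among gained gaps is thus partly set by how they were chosen. The downstream gene had held a summit in both 0 h libraries in 4 of the 42 and in 34 of the 255. The count of 24 was 43 without 0 h replicate 1, and 41 and 37 without 6 h replicates 1 and 2. In 12 gained gaps the upstream gene had no summit in either 0 h library. In 25 no 0 h summit lay inside the gap or within 250 bp outside it.

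Among the 24 gained gaps after a gene with 0 h summits, the best 0 h summit lay a median of 271 bp before the stop codon and the 6 h summit a median of 134 bp past it. The distance between them had a median of 476 bp and ran from 142 to 1625 bp. A downstream direction is fixed by the way these gaps were chosen, and only the distances are measurements. For ribosomal protein genes (12 gaps) the median distance was 461 bp and for other genes (12 gaps) 496.5 bp.

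**Figure D4:**
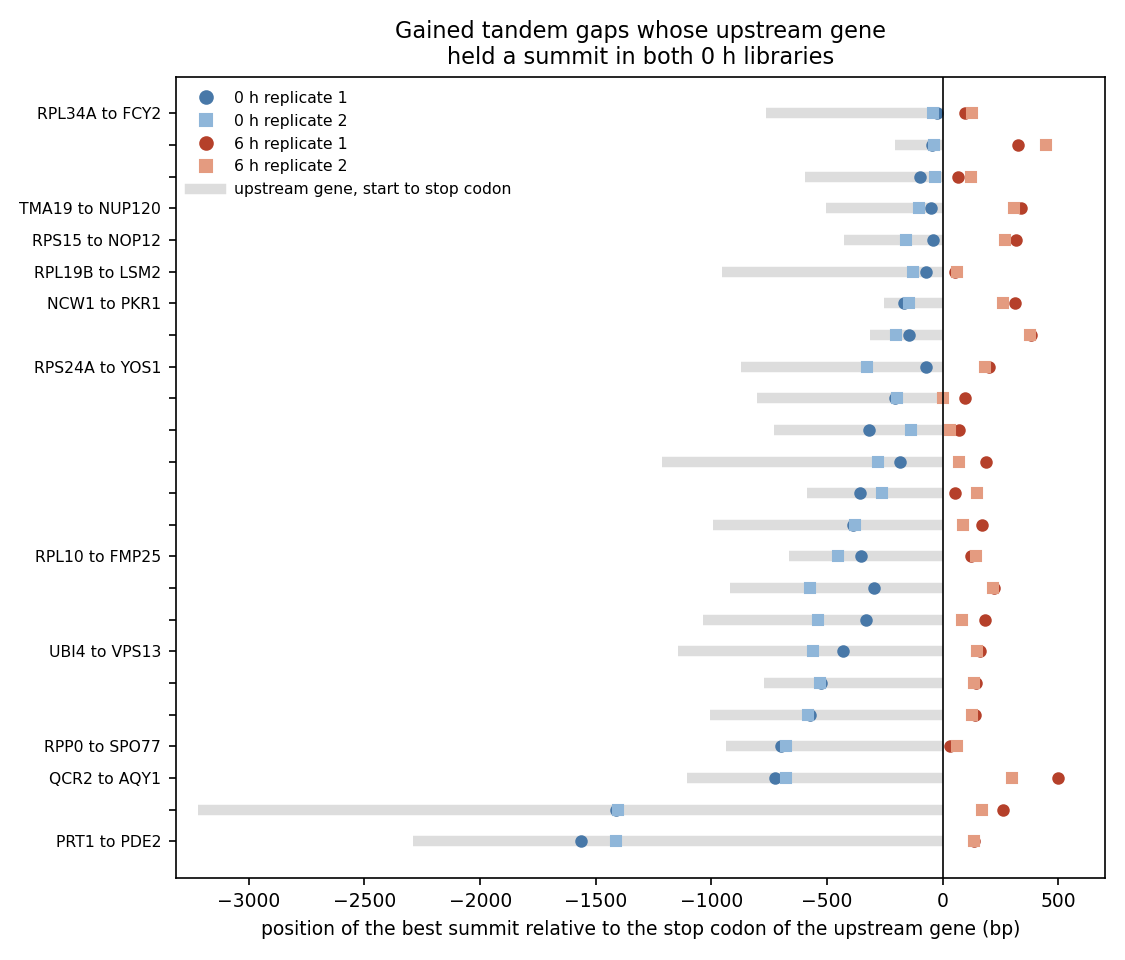
Position of the best summit in each library, in bp from the stop codon of the upstream gene, for the 24 gained gaps whose upstream gene held a summit in both 0 h libraries; the grey bar is that gene from start to stop codon, and the gaps described in the text are labelled. The 0 h points lie inside the gene and the 6 h points past it, which the choice of gaps fixes, and the 6 h points of the replicates lie close together in most gaps.

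The gained gap of highest rank follows RPL10, a protein of the large ribosomal subunit. At 0 h the summits lay inside RPL10, 352 and 452 bp before its stop codon, with scores of 77.1 and 77.7. At 6 h they lay 122 and 144 bp past it, at positions 283714 and 283736 of chromosome XII in the coordinates of the deposited lists, with scores of 66.9 and 98.5. RPL10 itself then held no summit in either 6 h library.

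RPP0 encodes the P0 protein of the ribosomal stalk. Its summits lay 698 and 680 bp before the stop codon at 0 h and 32 and 60 bp past it at 6 h, where they scored 76.2 and 58.2. As at RPL10, the 0 h summits lay far into the gene.

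At other gained gaps the 0 h summit was already near the stop codon. RPL34A had its 0 h summits 24 and 41 bp before the stop and its 6 h summits 94 and 125 bp past it, with 6 h scores of 48.0 and 58.9. RPL19B had them 72 and 131 bp before and 53 and 62 bp past, with 6 h scores of 46.7 and 63.1. For such genes the call rests on a shift smaller than the placement uncertainty, although the shift between libraries is not affected by it. RPS24A had summits 73 and 327 bp before the stop at 0 h and 199 and 181 bp past it at 6 h, with 6 h scores of 38.4 and 45.7. RPS15 had them 41 and 160 bp before and 315 and 270 bp past, with 6 h scores of 24.0 and 36.6.

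RPS8B, a gene of 603 bp, held no summit between its start and stop codon in any library. The nearest 0 h summits, scoring 25.04 and 35.4, lay upstream, at -919 and -840 bp from the 6 h summits, just beyond the start codon of RPS8B by the placement used and within its uncertainty of that codon. Its gap towards SSA4, an Hsp70 chaperone gene, had 6 h summits of 34.1 and 42.9 at 190 and 184 bp past RPS8B. Outside the ribosomal protein genes, TMA19, a ribosome-associated protein gene, had 0 h summits 49 and 103 bp before its stop codon and 6 h summits 337 and 309 bp past it, scoring 46.5 and 63.8. NCW1, a cell wall protein gene, had 0 h summits 167 and 145 bp before its stop codon. Its 6 h summits lay 311 and 258 bp past it and scored 35.7 and 45.9.

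Ribosomal protein genes made up 13 of the 42 upstream genes of gained gaps. Their 40 tandem gaps with a ribosomal protein gene upstream held a summit in 11, 9, 27 and 30 cases, while the genes themselves held one in 25, 27, 10 and 7. The 13 gained gaps are 32.5% of the 40, set beside 2.61% of all tandem gaps, and none of the 40 was lost. Summits were in all 4 libraries in 7 of them and in any library in 32. Where a ribosomal protein gene lay downstream instead, 2, 2, 4 and 3 of 38 gaps held a summit, with 2 gained and 1 lost. The count of 13 became 8 with all summits moved 250 bp to the right and to 5 with all moved to the left. Many of these genes have a near-identical second copy, and how reads that match both were counted is not given in the sources used here.

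Of the 40 gaps, 22 followed a ribosomal protein gene with a summit in both 0 h libraries. In none of the 22 did the gap hold a 0 h summit, and in 12 it held one in both 6 h libraries. Since the 22 were chosen for 0 h summits inside the gene, that absence is not an independent result. Other upstream genes that held a summit in each 0 h library precede 136 tandem gaps, of which 12, or 8.82%, were gained. Among these 136, 28 held a summit in a 0 h library and so could not be gained. With the gaps after ribosomal protein genes left out, tandem summits made up 14.5%, 12.6%, 17.1% and 18.7% of all placed summits. Both 6 h libraries thus still lay above both 0 h libraries.

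**Figure D5:**
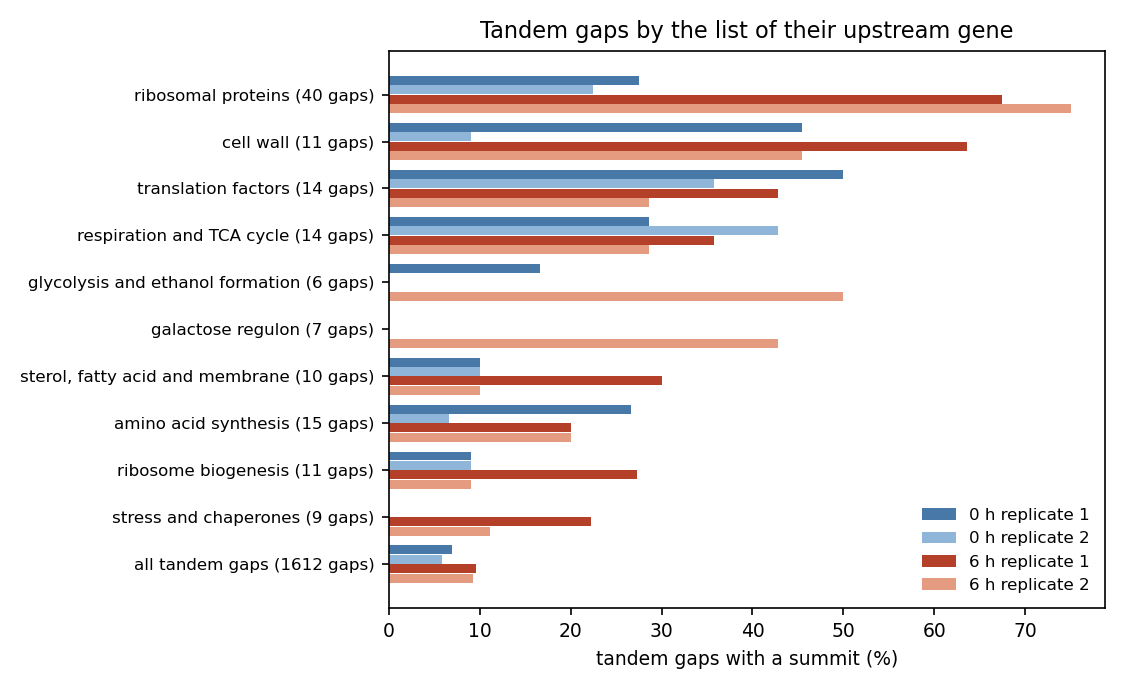
Share of tandem gaps with a summit (x axis, %) by the gene list of the upstream gene, 1 bar per library, with the number of gaps in brackets. After ribosomal protein genes 27 and 30 of 40 gaps held a summit at 6 h and 11 and 9 at 0 h; the other lists have 6 to 15 gaps each, so 1 gap moves a bar by several percentage points.

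The other gene lists have 6 to 15 gaps each and gave 1 gained gap or none, too few to set against the 2.61% of all tandem gaps. The single gained gap was 7.14% of the translation factor gaps, 7.14% of those after respiration genes, 9.09% of those after cell wall genes and 11.1% of those after stress genes. Of the gaps after translation factor genes, 14 in all, 7, 5, 6 and 4 held a summit, 3 in all 4 libraries, with 1 gained after PRT1 (a subunit of initiation factor eIF3) and 1 lost after SUI1 (eIF1). PAB1, the poly(A)-binding protein gene, had a summit in its gap in all 4 libraries, with scores of 15.7, 8.83, 18.7 and 10.5 at 85, 80, 71 and 21 bp past its stop codon. EFT1, a gene for elongation factor 2 with a near-identical copy elsewhere, held a summit both inside the gene and in the gap in all 4 libraries. Of 14 gaps after respiration and citrate cycle genes, 4, 6, 5 and 4 held a summit. One was gained after QCR2 and another lost after ATP7, while ATP14, an ATP synthase gene, scored 17.5, 26.5, 27.8 and 30.1 in all 4 libraries.

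Of 11 gaps after cell wall genes, 5, 1, 7 and 5 held a summit, so the 0 h replicates differed widely. The gap from CWP2 to CWP1, both cell wall mannoprotein genes, had a 6 h summit scoring 61.0 and 65.5 at 71 and 57 bp past CWP2. At 0 h the best summits lay inside CWP2 with scores of 98.3 and 83.5, and replicate 1 had a further summit of 7.27 in the gap, 1559 bp past CWP2. That gap was therefore not counted as gained. UBI4, the polyubiquitin gene on the stress list, gave a gained gap with 6 h scores of 18.5 and 31.4 at 162 and 148 bp past its stop codon. None of the gaps after amino acid synthesis (15 gaps), ribosome biogenesis (11 gaps) or sterol, fatty acid and membrane genes (10 gaps) was gained or lost.

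After genes of the galactose regulon 0, 0, 0 and 3 of 7 gaps held a summit, and after glycolytic and ethanol-forming genes 1, 0, 0 and 3 of 6, so the 6 h replicates differed and no gap was gained. GAL1, which encodes galactokinase, held a 6 h replicate 1 summit inside the gene, 309 bp before the stop codon with a score of 87.2, while in replicate 2 it lay 142 bp past the stop codon with a score of 131. GAL10, the epimerase gene, had a replicate 1 summit 52 bp before its stop codon, scoring 81.7, and a replicate 2 summit 138 bp past it, scoring 118. Neither gap held a 0 h summit. PDC1, the main pyruvate decarboxylase gene, had a summit in its gap in 6 h replicate 2 alone, with a score of 123 at 122 bp past the stop codon, and a summit inside the gene in the other 3 libraries. The same held at ILV5, a branched-chain amino acid synthesis gene, whose 6 h replicate 2 summit scored 87.6 at 310 bp past the stop codon.

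This was frequent in 6 h replicate 2. Of the gaps with a summit in 1 library alone, 23, 20, 30 and 37 in the 4 libraries, the replicate held a summit inside the upstream gene in 9, 6, 16 and 25. A gap seen in 6 h replicate 2 alone thus often went with a replicate 1 summit inside the upstream gene. That summit was counted at any distance from the stop codon, and at PFK2 it lay 2100 bp before it. RPL9B had 0 h scores of 111 inside the gene in replicate 1 and 118 in the gap in replicate 2. Its 6 h scores were 81.4 in the gap in replicate 1 and 118 inside the gene in replicate 2. Its best summits thus lay on different sides of the stop codon in the replicates at both times.

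Of the 12 lost gaps, 7 had their 0 h summits nearer the start codon of the next gene. Over all tandem summits at 0 h, 42 of 114 and 41 of 98 (replicates 1 and 2) were nearer the start codon. By rank the first lost gap was the one from POC4, a proteasome assembly gene, to RPL33A, which holds SNR17B, the second gene for U3. Its 0 h summits scored 21.3 and 26.7, at 105 and 161 bp past POC4. At 6 h POC4 held summits scoring 73.9 and 65.1 at 71 and 119 bp before its stop codon, so the locus stayed occupied and the summits lay on the other side of that codon. Its lower score percentile of the 2 libraries was 76.5, below that of each of the 10 gained gaps of highest rank, which ran from 79.5 to 97.3. Those 10 were drawn from a larger set, and the percentiles come from different libraries. Over all gained gaps the lower percentile ran down to 1.49, and over all lost gaps to 10.8. The other named lost gaps scored 15.1 or less. From DUG3, a glutathione degradation gene, to YNL190W, a cell wall protein gene, the 0 h summits scored 15.1 and 13.9 and lay 23 and 7 bp before the start codon of YNL190W. At 6 h the gap behind YNL190W, towards the importin gene SRP1, was gained, with scores of 17.2 and 26.3 at 507 and 429 bp past its stop codon. Whether the 0 h summits lie before or inside YNL190W is not resolved at this placement, since the best shift of chromosome XIV was -200 bp.

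SUI1 to CWC25, a splicing factor gene, had 0 h scores of 15.1 and 11.4 at 9 and 75 bp before the start codon of CWC25. ATP7 to HCS1, a helicase gene, had 12.8 and 9.50 at 111 and 116 bp. ROX1, the repressor of hypoxic genes, to UBA3 had 6.13 and 6.96 at 61 and 7 bp. These summits lay close to the start codon of the next gene, within the placement uncertainty. At 6 h, CWC25 held summits 39 and 143 bp after its start codon and HCS1 held them 70 and 51 bp after its own, while ROX1 held summits scoring 30.7 and 66.2. APE1 to GFA1, the first enzyme of chitin precursor synthesis, had 13.9 and 15.1 at 344 and 301 bp before GFA1. SYC1 to GAC1 had 10.3 and 8.31, YSR3 to MRS4 had 6.00 and 6.76, DSE3 to RBL2 had 5.32 and 5.35, and GIS3 to NYV1 had 6.36 and 3.94.

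Of the 12 lost gaps, 9 lie on XI, XIV and XV, the chromosomes whose best shift was not 0 bp. Those chromosomes hold 157, 202 and 254 of the 1612 tandem gaps. Without them 3 lost gaps and 30 of the 42 gained gaps were left. With summits moved by the best shift of their chromosome there were 6 lost gaps. At 6 h both libraries placed a summit inside the upstream gene for 3 of the 12, and inside the downstream gene for 3. For 6 of the 12 no 6 h summit lay inside the gap or within 250 bp outside it.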

How the data were processed

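Rpb1 chromatin immunoprecipitation libraries were analysed as 4 deposited summit lists, each made from a single library. The submitters' processing notes name MACS2 2.2.7.1, SAMtools 1.10, Bowtie2 2.2.4 and fastp 0.20.1 without saying what each did. Which build, threshold and control were used is not given in the sources used here. Per summit, the deposited score is a −log10 p-value or q-value, and which is not stated; the lowest score in any list was 2.00. Counts of summits and scores depend on read depth, which is unknown.

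Gene names and neighbours were taken from RefSeq (assembly R64), and strands from the W or C in the systematic gene names. Each summit was placed inside a protein-coding gene or in the gap between its nearest such genes. Distances were counted along the direction of transcription. Chromosomes were matched by sliding 195 landmark genes up to 12000 bp either way, 100 bp at a time. Of the 114 landmarks on the 8 chromosomes used, 102 had a summit without any shift. The landmarks include the ribosomal protein genes described.

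Each library gave 1 value, compared by mean, SD and a two-sided exact permutation test. Where a gap or gene held several summits, the best-scoring one was used. Named gaps were the 12 of highest mean score percentile among those in all 4 libraries, the 10 gained and 10 lost ones with the highest lower percentile, and those of highest percentile in each gene list and among non-coding RNA genes; 1 gained gap of this rule is not reported here. CWP2 and RPL9B, PRT1, QCR2, ATP7, SUI1 and TLC1 as members of small counts, and YNL190W as a pair of gaps were singled out after their values were seen. The members, the 10 gene lists and the rules were chosen with earlier results of these data known. The placement code was tested on simulated data. The deviations of same-numbered replicates had a correlation of -0.026 over 255 gaps, which were chosen for holding a summit. In only 16 of these did exactly 1 library of each time hold a summit. In 6 these were the replicate 1 libraries and in 1 the replicate 2 libraries. So few gaps cannot exclude a pairing, and the numbers were not taken to pair the samples. Python 3.11.15, pandas 2.3.3, numpy 2.4.6 and matplotlib 3.10.9 were used. No sequences are shown.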

Additional observations from a re-analysis of the deposited data

How the results depend on the processing

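Of 108 alternative values, 66 kept their direction and size, 25 moved and 17 reversed; the causes were not tested. The difference in tandem share (6.97 points) was 5.65 to 8.29 points with 1 library left out, 9.72 with the better-scoring 50% of summits, 4.24 with summits moved 250 bp right and -1.75 with them moved left. These moves and their use were added after seeing the data. The difference in the median past the stop codon (-8.75 bp) ran from -20 to 2.50 bp with 1 library left out, and was 3.50 bp without gaps holding a non-coding RNA gene and 43.5 bp after the left move. That to the start codon (4.50 bp) ran from -17.5 to 26.5 bp, and was -76.25 bp with the best landmark shifts, -19.75 bp for the better-scoring 50%, -11.0 bp without chromosomes shifted over 100 bp, and -28.25 and 74.75 bp after the right and left moves. That of the relative position (-0.040) ran from -0.092 to 0.011, and was 0.024 with landmark shifts and 0.0014 after the right move. The difference in the share within 250 bp of the stop codon (4.29 points) was 1.28 with landmark shifts, 1.72 without RNA genes, -4.47 after the left move, -0.506 for a 100 bp limit and 10.1 for 500 bp.

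Gained gaps (42) numbered 50 to 79 with 1 library left out and 22 after the left move. Lost gaps (12) numbered 15 to 35, and were 6 with landmark shifts, 3 without shifted chromosomes, 30 with 250 bp around the gap counted, and 24 after the left move. The 13 gained gaps after ribosomal protein genes became 8 and 5 after the right and left moves, and the 24 with 0 h summits in the upstream gene became 34 to 43 with 1 library left out and 10 after the left move. As a replicate block, the mean difference within same-numbered pairs equals the difference of the means by arithmetic. The 6.97 points for the share and the other differences of library values could therefore not change. They are still counted among the alternatives that kept their direction and size. The mean counts within pairs were 93 gained, 44 lost and 58.5 gained after genes with 0 h summits. The difference in partners within 250 bp (18.3 points) kept its direction and size under each alternative run.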
